A study of Mus musculus with 2 samples.

Results

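The common gamma chain cytokines and their receptors were described through 8 genes listed by name, out of 22337 gene symbols in the expression matrix. The receptor chains are *Il2rg*, *Il2rb*, *Il15ra* and *Il21r*, and the cytokines are *Il2*, *Il15*, *Il7* and *Il21*. RNA was measured by single-cell RNA-Seq in 4441 cells isolated from 6 heart allografts at postoperative day (POD) 14. All 6 donors carried the Bm12 allele, an altered MHC class II I-A molecule, and all recipients were B6 mice. The donors of hearts 1 to 3 were wild type for *Il33* (labelled IL-33+), and the donors of hearts 4 to 6 had a germline deletion of *Il33* (labelled IL-33-). The ages of the animals are not given in the sources used here. The deletion concerns the graft, and no change of *Il33* is stated for the recipients. The cells had been enriched for leukocytes on a density gradient, marked with a hashtag antibody for each heart, and pooled into 1 droplet library, in which no cell barcode occurred more than once.

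The common gamma chain, the product of *Il2rg*, is a subunit that the receptors for IL-2, IL-4, IL-7, IL-9, IL-15 and IL-21 share. It signals through the kinase JAK3, beside JAK1 on the partner chain, to transcription factors of the STAT family, mainly STAT5 for IL-2, IL-7 and IL-15 and STAT3 for IL-21. The beta chain *Il2rb* completes the receptors for IL-2 and IL-15, and *Il15ra* binds IL-15 on the cell that makes it and presents it to neighbouring lymphocytes. In tissues, IL-15 and IL-7 are known chiefly as products of myeloid and stromal cells that sustain NK cells and T cells, whereas IL-2 and IL-21 are made by activated T cells.

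A cell held 1500 to 14977 unique molecular identifiers (UMIs, each 1 captured transcript), with a median of 3699, and a heart held 908154 to 7013058 UMIs over 230 to 1666 cells. The authors' annotation of 14 cell types was used as deposited. It was made from the same expression values, so levels across types are given as a description without a test. Some features of the annotation touch the genes described here. Of the 83 unconventional T cells, 51 held at least 2 T cell markers and at least 2 macrophage markers. Of the 204 cells annotated as monocyte-derived dendritic cells (Mo-DCs), 46 held at least 3 of 6 neutrophil markers, and in the 263 regulatory T cells (Tregs) 16 held at least 3 markers of ILC2s, the type 2 innate lymphocytes. Of the 375 fibroblasts, 65 (17.3%) held at least 2 endothelial markers, whose summed level over 4 genes in fibroblasts was 464 to 751 CPM in hearts 1 to 3 and 52.3 to 858 CPM in hearts 4 to 6, and their part in the fibroblast values below was not tested. The summed level of 5 T cell markers was 1550 to 2930 CPM in the 5 types of T cells named by state and 821.5 CPM in unconventional T cells. It was only 544 CPM in NKT cells, beside 213 CPM in NK cells. The 5 NK markers summed to 7497 CPM (NK cells) and 5520 CPM (NKT cells). The 5 Treg markers summed to 3218 CPM in Tregs, 1663 CPM in effector and effector memory T cells and 1144 CPM in central memory T cells. The deleted gene itself did not separate the groups. *Il33* gave 14, 2 and 133 UMIs in hearts 1 to 3 and 17, 4 and 7 UMIs in hearts 4 to 6, and in fibroblasts 7, 0 and 121 UMIs (34, 6 and 270 cells) against 9, 3 and 5 UMIs (31, 4 and 30 cells). Which part of *Il33* the allele lacks is not given in the sources used here, and a 3′ count that falls outside that part checks nothing. The groups are therefore called by their labels, and every direction below rests on those labels.

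The receptor chains were read far more often than the cytokines. *Il2rb* gave 19759 UMIs in 3106 cells (69.9% of all cells), *Il21r* 5112 UMIs in 2113 cells (47.6%), *Il2rg* 3726 UMIs in 2190 cells (49.3%) and *Il15ra* 335 UMIs in 284 cells (6.39%). *Il15* gave 172 UMIs in 141 cells, *Il21* 46 UMIs in 27 cells, *Il2* 34 UMIs in 34 cells and *Il7* 15 UMIs in 13 cells. On GRCm38 (GENCODE vM21) the receptor genes and the cytokine genes *Il15* and *Il7* have separate loci, *Il2rg* at chrX:101264378-101268255 (minus strand), *Il2rb* at chr15:78479256-78495271 (minus strand), *Il21r* at chr7:125603429-125633570 (plus strand), *Il15ra* at chr2:11705290-11734317 (plus strand), *Il15* at chr8:82331632-82403222 (minus strand) and *Il7* at chr3:7569994-7613760 (minus strand). These totals show how many molecules stand behind each gene and do not rank the genes against each other, since capture differs between transcripts. Below, a level is the mean of the deposited counts (CPM, scaled to the same total in every cell) over the cells of a type in a heart, given as mean ± SD over the 6 hearts. Shares of cells carry 95% exact binomial (Clopper-Pearson) intervals. Where no cell of a type held a UMI, the limit given is instead the share that 3 cells would make, and it bounds the cells with a UMI, not the cells that express the gene. Intervals and limits cover counting error only.

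*Il2rb*, the chain through which NK cells and memory T cells receive IL-15, was graded across the lymphocytes. It was highest in NK cells at 2726 ± 106 CPM, with 2586, 2653 and 2788 CPM in hearts 1 to 3 and 2756, 2692 and 2884 CPM in hearts 4 to 6. NKT cells followed at 2574 ± 223 CPM, and the pair differed by less than their pooled SD of 174 CPM. Central memory T cells (Tcm) had 1755 ± 276 CPM and lay below NKT cells in 6 of 6 hearts. Resident memory-like T cells (Trm-like) had 1218 ± 159 CPM and Tregs 1075 ± 168 CPM, a pair that overlapped (Trm-like higher in 4 of 6 hearts). Effector and effector memory T cells (Tem/eff) had 803 ± 87.4 CPM, below Tregs in 6 of 6 hearts. Naive T cells (Tn) had 486 ± 94.1 CPM, the lowest level among T cells, and still lay above fibroblasts (225 ± 114 CPM) in 6 of 6 hearts.

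Outside the lymphocytes of the T and NK lineages *Il2rb* stayed above 0. B cells had 122 ± 55.3 CPM, and 23.4% of them held a UMI (interval 18.6 to 28.8%, median 2292 UMIs per cell) against 99.2% of NK cells (98.5 to 99.7%, median 2712 UMIs). Macrophages had 88.1 ± 32.2 CPM and monocytes 74.9 ± 50.4 CPM. Because all hearts shared 1 library, RNA free in the suspension reaches every droplet, and NK genes that B cells lack give a rough scale for it. In B cells, *Il2rb* stood at 4.47% of its NK cell level, beside 1.19% for *Gzma*, 2.91% for *Klre1* and 6.36% for *Ncr1*. In macrophages it stood at 3.23%, beside 1.77%, 4.79% and 5.26% for the same genes. In Mo-DCs it stood at 6.59%, beside 2.24%, 6.16% and 6.62%. The *Il2rb* of these 3 types was within the range of the NK genes and is not read as expression. It was above all 3 genes in fibroblasts (8.25% beside 2.68%, 6.05% and 4.69%), cDCs (3.37% beside 2.53%, 3.23% and 0.834%) and monocytes (2.75% beside 0.826%, 1.09% and 0%). T cells hold more *Il2rb* than they hold of these genes, in Tcm 64.4% of the NK cell level beside 5.43%, 44.3% and 7.65%. The 3 genes can therefore understate its background, and this excess is not read as expression either. *Ncr1*, the highest of the 3 in B cells and Mo-DCs, was at only 2.83 and 2.94 CPM there.

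*Il2rg*, the shared chain, was far more even. Its level ran from 286 ± 30.2 CPM in NK cells through 255 ± 90.3 CPM in B cells, 244 ± 14.8 CPM in Tem/eff and 243 ± 49.7 CPM in Tregs to 180 ± 67.2 CPM in Tn. Neighbours in this order overlapped in the hearts, and in no step from NK cells down to Tn was the higher type above the next in 6 of 6 hearts. Macrophages had 152 ± 42.2 CPM, conventional dendritic cells (cDCs) 129 ± 51.2 CPM and monocytes 101 ± 44.6 CPM. Fibroblasts had 55.6 ± 77.2 CPM, with 62 of 375 cells holding a UMI (16.5%, 12.9 to 20.7%) at a median depth of 5790 UMIs. When every cell was thinned to 1500 UMIs, 33.5% of NK cells, 32.2% of B cells, 28.1% of Tem/eff and 15.4% of macrophages held *Il2rg*, against 51.7%, 44.4%, 71.9% and 51.5% before thinning, and the order of the types changed with it.

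*Il21r*, the private chain of the IL-21 receptor, was highest in antigen-experienced T cells. Tregs had 508 ± 210 CPM, Tem/eff 447 ± 89.6 CPM, Trm-like cells 384 ± 85.4 CPM and Tcm 374 ± 122 CPM, and each of these overlapped the next. NKT cells had 313 ± 72.6 CPM and Tn 263 ± 105 CPM. B cells, a known target of IL-21, had 195 ± 78.7 CPM, NK cells 182 ± 41 CPM and macrophages 175 ± 40.9 CPM. Fibroblasts were lowest at 37.4 ± 30.4 CPM, and 46 of 375 cells held a UMI (12.3%, 9.12 to 16.0%).

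**Figure D1:**
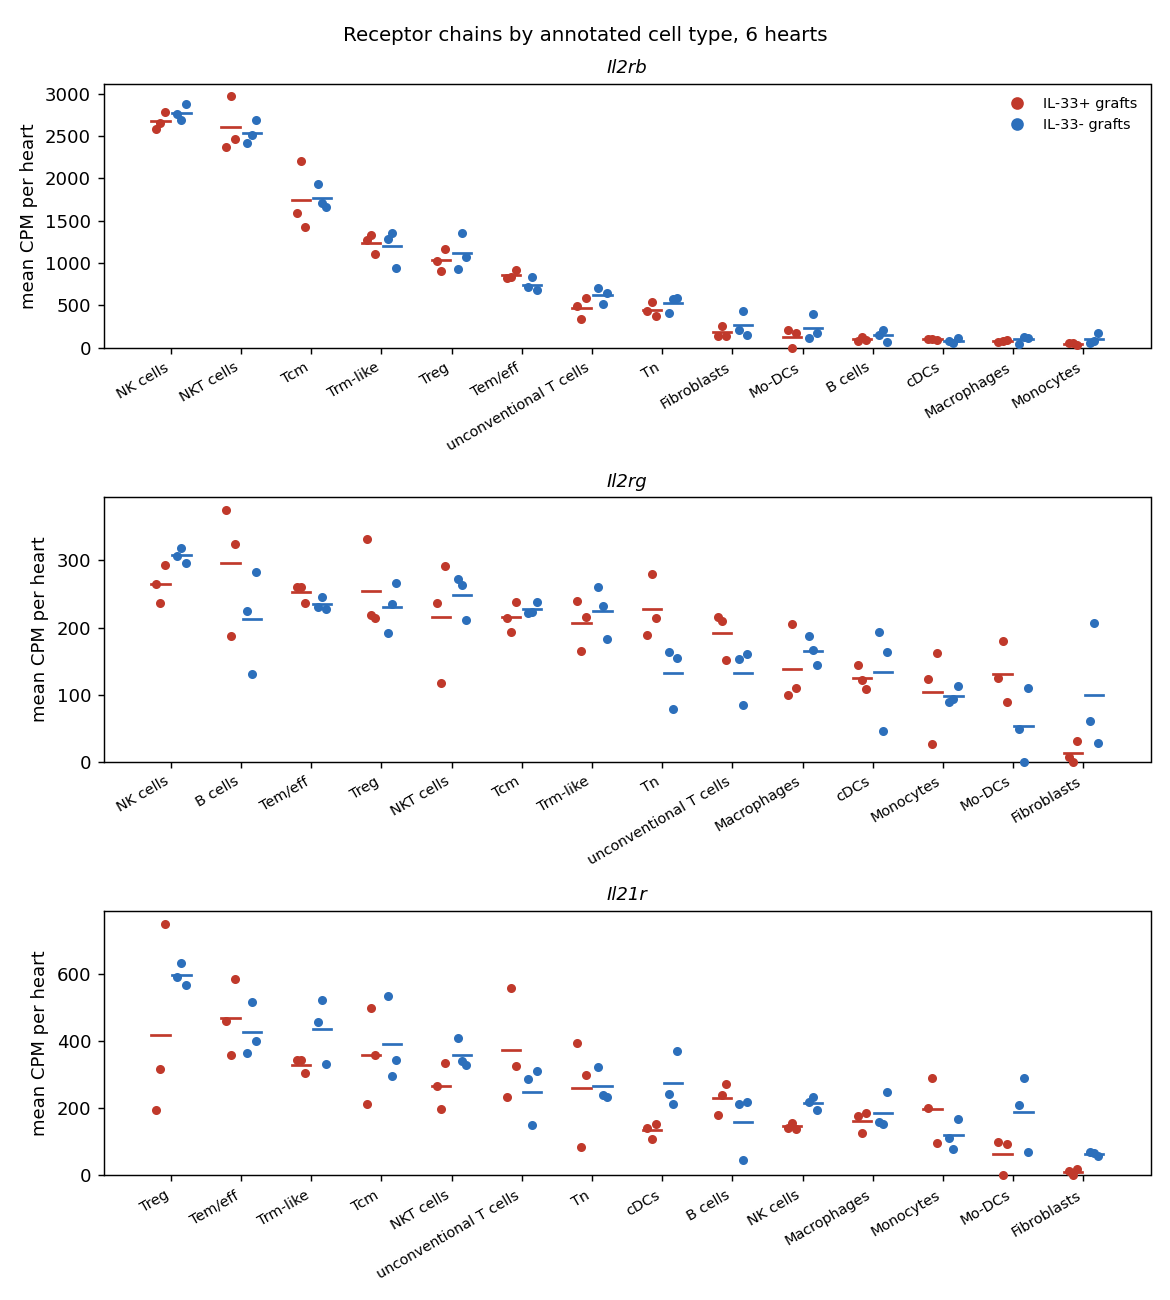
Mean CPM per heart (vertical axis, linear, CPM) of *Il2rb*, *Il2rg* and *Il21r* in 14 annotated cell types, ordered by level, with 1 point per heart and a bar at the mean of each graft group of 3 hearts. *Il2rb* goes from 2726 CPM in NK cells to 486 CPM in Tn before the types outside the T and NK lineages. *Il2rg* changes less, from 286 CPM in NK cells to 180 CPM in Tn, and is lowest in fibroblasts at 55.6 CPM.

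*Il2rg* and *Il21r* went together across the 14 types (Pearson r = 0.805 over the mean level of each type), and the types share a library and the hearts they came from. The 250 bases before the start of each gene, from RefSeq on GRCm38.p6, are shown for this pair, on the strand of the gene. Each was searched on both strands for a GC box (GGGCGG), an ETS core (CCGGAAG) and a STAT pattern (TTCNNNGAA), and matches are in capitals. *Il21r* (chr7:125603179-125603428, plus strand) holds 1 GC box, which begins 49 bases before the start, and neither of the others. *Il2rg* (chrX:101268256-101268505, minus strand) holds 1 ETS core, which begins 17 bases before the start, and neither of the others. Of 32817 such windows, 32.7% hold a GC box, 6.9% the ETS core and 7.01% the STAT pattern. A match is a run of letters and no evidence of a bound factor.
Il21r: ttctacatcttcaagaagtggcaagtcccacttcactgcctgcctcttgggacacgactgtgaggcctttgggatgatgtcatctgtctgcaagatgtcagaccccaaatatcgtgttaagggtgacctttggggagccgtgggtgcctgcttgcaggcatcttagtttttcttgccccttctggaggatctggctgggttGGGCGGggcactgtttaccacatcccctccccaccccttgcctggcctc
Il2rg: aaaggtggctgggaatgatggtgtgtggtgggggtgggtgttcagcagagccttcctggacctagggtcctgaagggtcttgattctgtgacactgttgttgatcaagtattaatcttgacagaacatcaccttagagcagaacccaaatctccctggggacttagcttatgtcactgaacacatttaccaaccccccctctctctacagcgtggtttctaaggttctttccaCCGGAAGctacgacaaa

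The genes whose level over the 14 types was most like each receptor chain were taken from 10072 genes with at least 100 UMIs. For *Il2rb* they were *Gm19585* (r = 0.983), *Ctsw* (0.978) and *Nkg7* (0.970), the last of which encodes a protein of cytotoxic granules. For *Il2rg* they were *Nosip* (0.946), *Eml4* (0.944) and *Abcf1* (0.935). For *Il21r* they were *Stk4* (0.909), *Elmo1* (0.908) and *Mrpl43* (0.906), and for *Il15ra* they were *Fkbp1a* (0.830), *Dpysl2* (0.825) and *Slc30a7* (0.824).

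The share of cells in which chains of 1 receptor were read together differed by type, and so did depth. *Il2rb* and *Il2rg* were both detected in 271 of 347 NKT cells (78.1%, 73.4 to 82.3%), 220 of 327 Tem/eff (67.3%, 61.9 to 72.3%) and 477 of 931 NK cells (51.2%, 48.0 to 54.5%), and in 30 of 286 B cells (10.5%, 7.19 to 14.6%), the type used above as background. The median depth was 5742, 5694, 2712 and 2292 UMIs per cell in that order. Both were also read in 58 of 83 unconventional T cells (69.9%) and 147 of 266 Tcm (55.3%). *Il2rb* was held by 347 of 347 NKT cells and 924 of 931 NK cells. In these types the share with both chains is thus almost the share with *Il2rg*. Shares with several chains were not thinned, so they do not tell a difference between types from a difference in depth. *Il2ra*, which raises the affinity of the IL-2 receptor, was detected in 143 of 327 Tem/eff (43.7%, 38.3 to 49.3%) and 76 of 263 Tregs (28.9%, 23.5 to 34.8%), in contrast to 26 of 931 NK cells (2.79%, 1.83 to 4.06%) and 9 of 286 B cells (3.15%). Thinned to 1500 UMIs these shares were 27.5%, 22.8%, 1.72% and 2.1%. All of *Il2ra*, *Il2rb* and *Il2rg* were read in 103 Tem/eff (31.5%, 26.5 to 36.8%), 44 Tregs (16.7%, 12.4 to 21.8%), 14 NK cells (1.5%) and 1 B cell (0.350%). *Il7r*, the alpha chain of the IL-7 receptor, was highest in Tn at 162 ± 85.8 CPM and was 9.52 ± 2.21 CPM in NK cells. It was not particular to Tn. cDCs had 142 CPM, with Tn higher in 4 of 6 hearts and a pooled SD of 79.3 CPM. Trm-like cells had 117 CPM and macrophages 114 CPM.

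*Il15* was concentrated in the myeloid and stromal cells. Mo-DCs had 106 ± 104 CPM, with 65.4, 314 and 83.2 CPM in hearts 1 to 3 and 92.0, 44.2 and 35.8 CPM in hearts 4 to 6. The value of 314 CPM in heart 2 rests on 2 UMIs in 4 cells. Monocytes came next at 15.1 ± 15.9 CPM and lay below Mo-DCs in 6 of 6 hearts, on few UMIs. In hearts 5 and 6 each type held 1 UMI, in 7 Mo-DCs against 7 monocytes and in 17 against 12. The median depth was 2310 UMIs in Mo-DCs and 6709 UMIs in monocytes, so 1 UMI makes more CPM in a Mo-DC. The 5 and 15 monocytes of hearts 2 and 3 held 0 UMIs. Fibroblasts (11.9 ± 14.6 CPM) and macrophages (9.97 ± 8.39 CPM), which overlapped, came after monocytes, and cDCs had 6.38 ± 5.67 CPM. NK cells had 4.27 ± 4.17 CPM and Tem/eff 0.797 ± 1.35 CPM, and no UMI was found in 243 Tn, which by the limit of 3 cells allows up to 1.23% of cells with a UMI. After thinning, 8.33% of Mo-DCs held *Il15*, against 2.13% of fibroblasts, 1.63% of macrophages and 0% of monocytes.

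The lead of Mo-DCs became smaller without the neutrophil-marker cells among them, and 1 such cell in heart 2 had a large part in this. Of the 46 cells with at least 3 neutrophil markers, 8 held *Il15* (17.4%, 7.82 to 31.4%, mean 178 CPM, median depth 1916 UMIs), and of the other 158 cells 14 did (8.86%, 4.93 to 14.4%, mean 52.0 CPM, median depth 2378 UMIs). The intervals overlapped. An alternative chosen after seeing the data left out the neutrophil-marker cells. The level in Mo-DCs was then 36.8 ± 30.7 CPM, and the ratio to monocytes was 2.44 in place of 6.99. Mo-DCs were higher in 4 hearts, lower in 1 and equal in 1. By heart they had 35.3, 0 and 69.2 CPM in hearts 1 to 3 and 54.65, 61.9 and 0 CPM in hearts 4 to 6. The fall of heart 2 from 314 to 0 CPM came from 1 neutrophil-marker cell, which held 2 UMIs of *Il15* (1254 CPM). The genes most like *Il15* across types were *Lrg1* (r = 0.961), *Fpr2* (0.951) and *Lcn2* (0.950), all known from neutrophils. The summed level of the 6 neutrophil markers in Mo-DCs was 1651 to 8623 CPM in hearts 1 to 3 and 1478 to 70185 CPM in hearts 4 to 6. With all Mo-DCs but without heart 2 the ratio was 3.54.

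*Il15ra*, which presents IL-15, was spread over many types at low levels. cDCs had 41.0 ± 18.0 CPM and Tregs 38.7 ± 25.9 CPM, followed by macrophages (27.3 ± 9.79 CPM), fibroblasts (26.4 ± 26.2 CPM) and monocytes (22.0 ± 19.5 CPM), and no neighbours in this order differed beyond their spread. NK cells (7.16 ± 7.28 CPM) and B cells (4.67 ± 4.64 CPM) were lowest. *Il15* and *Il15ra* met in the same cell in 8 of 31 macrophages that held *Il15* (25.8%, 11.9 to 44.6%), while 36 of the 398 other macrophages held *Il15ra* (9.05%, 6.42 to 12.3%). The same counts were 8 of 27 (29.6%, 13.8 to 50.2%) against 45 of 348 (12.9%, 9.59 to 16.9%) in fibroblasts, and 4 of 9 (44.4%, 13.7 to 78.8%) against 17 of 162 (10.5%, 6.23 to 16.3%) in cDCs. None of the 22 Mo-DCs with *Il15* held *Il15ra*, against 5 of 182 without. These shares were not thinned, and the depth of cells with and without *Il15* was not compared. They therefore do not tell shared expression from a difference in depth. Cells of 1 heart are not independent, so no test was made of these shares.

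*Il21* was read in 4 of the 14 types, all of them T cells by annotation. Tem/eff held 24 of its 46 UMIs in 16 cells, Tregs 12 UMIs in 7 cells, unconventional T cells 8 UMIs in 2 cells, of which 7 came from a single cell, and Trm-like cells 2 UMIs in 2 cells. In NK cells 0 of 931 cells held it, which by this limit allows up to 0.322% of cells with a UMI, and in B cells 0 of 286, up to 1.05%. In the 27 cells with *Il21*, *Maf*, a transcription factor known to promote *Il21*, was detected in 27, *Cd3e* in 25, *Cd4* in 23, the costimulator *Icos* in 21, the inhibitory receptor *Pdcd1* in 11, *Bcl6* in 8, *Cd8b1* in 2, and *Cd8a* and the follicular homing receptor *Cxcr5* in 0. Within Tem/eff, *Maf* was held by 16 of 16 cells with *Il21* (79.4 to 100%, median depth 5426 UMIs) and by 211 of 311 cells without (67.8%, 62.3 to 73.0%, median depth 5732 UMIs). Within Tregs the counts were 7 of 7 (59.0 to 100%) and 188 of 256 (73.4%, 67.6 to 78.7%). In Tem/eff, *Il2ra* was held by 12 of 16 against 131 of 311, *Cd4* by 12 against 206 and *Icos* by 11 (68.8%, 41.3 to 89.0%) against 249 (80.1%, 75.2 to 84.4%), and the intervals for *Icos* overlapped. *Foxp3*, the defining factor of Tregs, was detected in 1 of the 7 annotated Tregs with *Il21* and in 50 of the 256 without. Across the 14 types the genes most like *Il21* were *Foxp3* (r = 0.970), *Tnfrsf4* (0.970) and *Gldc* (0.963).

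*Il2*, the growth factor of activated T cells, was at the edge of detection. Its 34 UMIs lay in 34 cells of 13 types, 12 of them in Tem/eff (3.67% of 327 cells, 1.91 to 6.32%) and 5 in Trm-like cells (1.38% of 362 cells, 0.450 to 3.19%). The other 11 types with a UMI held 1 to 3 each. By level, Trm-like cells (6.94 CPM) lay above Tem/eff (5.42 CPM), in 3 of 6 hearts with 1 equal, and the pooled SD was 7.06 CPM. *Cd3e*, a chain of the T cell receptor complex, was detected in 20 of the 34 cells, and no cell held more than 1 UMI of *Il2*. No cell held both *Il2* and *Il21* (0 of the 27 cells with *Il21*, exact interval 0 to 12.8%). With 34 and 27 cells this does not show that the genes were read in separate cells. They lie 96799 bases apart on chromosome 3 (*Il2*, 37120523 to 37125959, and *Il21*, 37222759 to 37232636, both on the minus strand of GRCm38 in GENCODE vM21). *Il7*, the survival factor of naive T cells, gave 8 of its 15 UMIs in 7 of 375 fibroblasts (1.87%, 0.754 to 3.81%), 5 in NK cells and 2 in macrophages. In fibroblasts, 7 of the 8 UMIs came from the 270 cells of heart 3, while NK cells held *Il7* in hearts 1, 2, 4 and 6. The level was 3.26 CPM in NK cells and 2.54 CPM in fibroblasts, with NK cells higher in 3 of 6 hearts and equal in 1. No leading type can be named from these counts. Of the 13 cells with *Il7*, 10 held *Dcn* and 3 *Col3a1*, both fibroblast genes, and 4 held *Cdh5* and 3 *Pecam1*, both endothelial genes. *Dcn* was also detected in 14 of the 34 cells with *Il2* and 10 of the 27 with *Il21*. The 11 remaining types held none, on a gene with 15 UMIs in all.

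**Figure D2:**
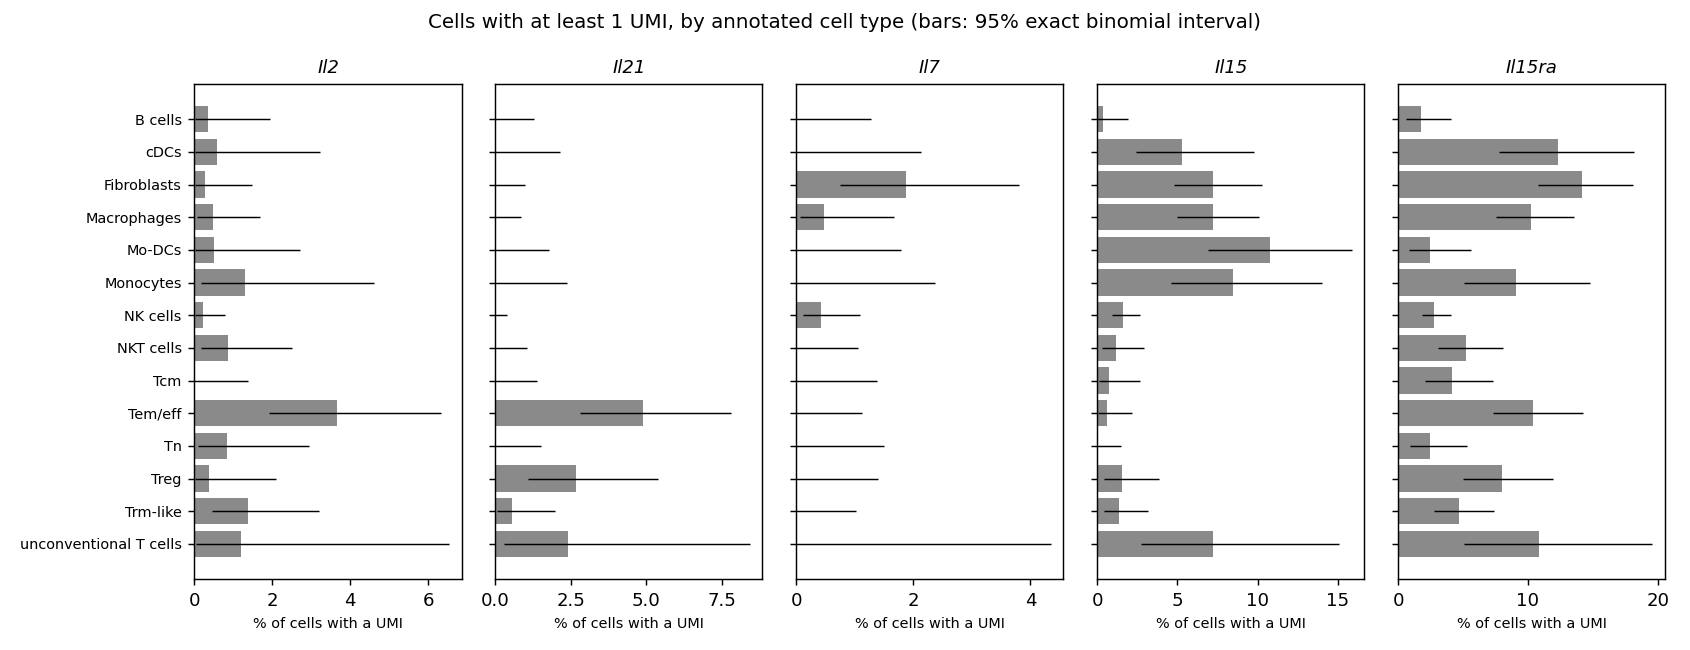
Share of cells with at least 1 UMI (horizontal axis, percent, a separate scale per gene) of *Il2*, *Il21*, *Il7*, *Il15* and *Il15ra* in 14 annotated types, all hearts together, with exact 95% binomial intervals. *Il21* was read only in 4 types annotated as T cells. Its highest share was in Tem/eff (4.89%), whose cells are deeper, while Tregs were higher in mean CPM (17.5 against 14.6 CPM). The highest share of *Il15* was in Mo-DCs (10.8%), and depth differs between types.

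The graft groups were then compared within each type, with the heart as the replicate (n = 3 per group) and limma on log2(mean CPM + 10). Fold changes are IL-33+ over IL-33-, so a negative value means a lower level in hearts labelled IL-33+. With 3 hearts against 3, an exact permutation test of a single value cannot go below p = 0.1. Of 112 pairs of a gene and a type, 61 passed the filter on low counts, and *Il7* passed in none. After Benjamini-Hochberg adjustment over all genes tested in a type, limma called 0 of the 61 pairs (lowest adjusted p = 0.514), where 0.00884% of all gene and type pairs were called. At an unadjusted p of 0.05 or less there were 8 pairs (13.1%, against 4.71% of all pairs tested). Of these 8, 7 were lower in hearts labelled IL-33+ and 6 were *Il21r* (6 of the 14 types it was tested in, where 2.29% of all pairs were lower at this threshold). The groups did not overlap in 5 of the 61 pairs (8.2%, against 9.82% of all pairs), a share near the background. The types come from the same 6 hearts and are not independent of each other. The median fold change of the 61 pairs was -0.12 on the log2 scale, while the median over all genes lay between -0.08 and 0.28 in the 14 types.

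*Il21r* was lower in hearts labelled IL-33+ over all cells, at 210, 244 and 227 CPM against 310, 350 and 287 CPM, and the groups did not overlap, as for 10.2% of all genes. The difference was -0.46 ± 0.11 on the log2 scale (SE; limma unadjusted p = 0.00238, adjusted p = 0.941), where 3.98% of genes passed an unadjusted p of 0.05 and 0% were called after adjustment. Thinned to 1500 UMIs, the share of cells with *Il21r* was 25.2%, 28.3% and 21.7% in hearts 1 to 3 and 31.7%, 35.6% and 33.1% in hearts 4 to 6. With every type given the same weight the difference was -0.20 (unadjusted p = 0.0709, adjusted p = 0.922). NK cells, among the types low in *Il21r*, made up 16.2%, 23% and 28.5% of the cells in hearts 1 to 3 and 12.6%, 11.6% and 22.4% in hearts 4 to 6. Fibroblasts, the lowest type, made up 3.93%, 2.61% and 16.2% against 3.71%, 1.41% and 5.37%. Tregs, the highest type, made up 3.12%, 10.9% and 5.88% against 6.58%, 8.8% and 5.9%. Tcm made up 4.85%, 8.26% and 3.18% against 7.42%, 17.3% and 7.33%. The part of these shares in the difference was not tested beyond the equal weighting.

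Within types, the difference was in the same direction in 10 of 14. In NK cells, *Il21r* was at 142, 158 and 139 CPM in hearts 1 to 3 and at 220, 234 and 196 CPM in hearts 4 to 6, with no overlap (-0.54 ± 0.19, limma unadjusted p = 0.00809, adjusted p = 0.731). Leaving out any 1 heart gave -0.60 to -0.48. In cDCs the hearts labelled IL-33+ had 142, 108 and 152 CPM and those labelled IL-33- 241, 213 and 371 CPM, again without overlap (-0.96 ± 0.30, limma unadjusted p = 0.00561, adjusted p = 0.514). Heart 2 holds 6 cDCs and heart 5 holds 9, and without those hearts the difference was -0.98. In fibroblasts the values were 12.4, 0 and 18.9 CPM against 69.5, 66.5 and 57.0 CPM (-1.99 ± 0.73, limma unadjusted p = 0.0104, adjusted p = 0.998). Hearts 2 and 5 hold 6 and 4 fibroblasts, and without them the difference was -1.52 (adjusted p = 0.739). The summed level of 5 T cell markers in fibroblasts was 51.1 to 146 CPM and 19.1 to 199 CPM in the respective groups, and its part in the result was not tested.

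**Figure D3:**
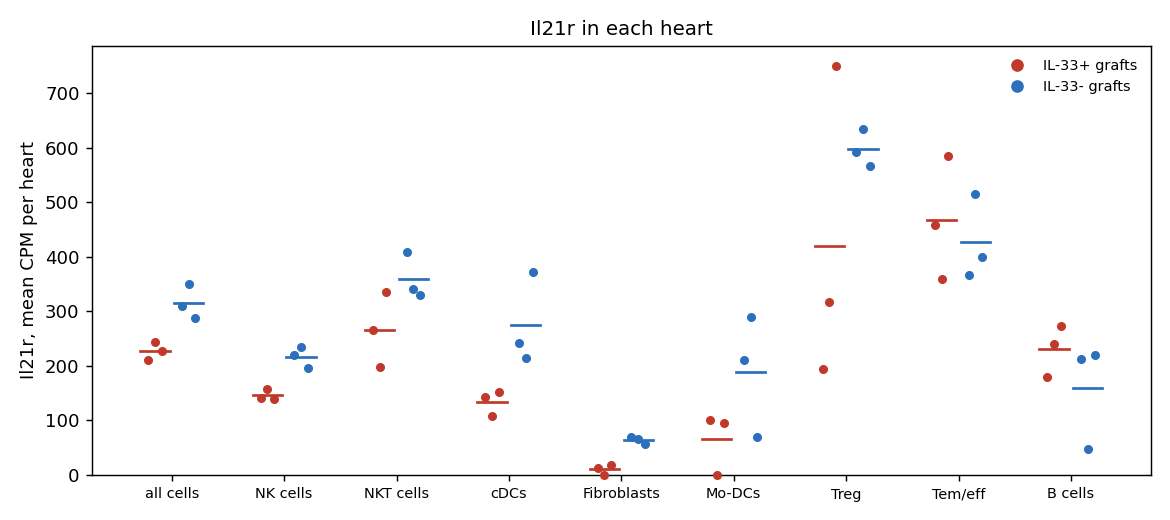
*Il21r* in each heart (vertical axis, mean CPM, linear) over all cells and in 8 annotated types, with 1 point per heart and a bar at the group mean. The IL-33+ hearts lie below the IL-33- hearts without overlap over all cells, in NK cells, in cDCs and in fibroblasts, and the groups overlap in the other types shown.

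The other differences of *Il21r* past the unadjusted threshold rested on overlapping groups. NKT cells had 266, 198 and 336 CPM against 409, 340 and 330 CPM (-0.44 ± 0.19, limma unadjusted p = 0.0261, adjusted p = 0.924), and without heart 2 the value was -0.25. Tregs had 194, 316 and 749 CPM against 592, 634 and 567 CPM (-0.72 ± 0.30, limma unadjusted p = 0.0243, adjusted p = 0.923). Heart 3 alone lies above the hearts labelled IL-33-, and the difference was -1.24 without it and -0.29 without heart 1. Without the Tregs that held ILC2 markers it was -0.82. Mo-DCs had 100.0, 0 and 94.6 CPM against 210, 289 and 69.4 CPM (-1.83 ± 0.91, limma unadjusted p = 0.0445, adjusted p = 1.00), which became -0.30 once hearts with fewer than 10 Mo-DCs were left out. *Il21r* was higher in hearts labelled IL-33+ in 4 types, none of them past the threshold. B cells had 179, 239 and 273 CPM against 212, 47.2 and 220 CPM (0.73 ± 0.47, limma unadjusted p = 0.134, adjusted p = 0.844), and without heart 5, which holds 4 B cells, the value was 0.07. In Tem/eff the difference was 0.12 ± 0.18 (limma adjusted p = 0.999).

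*Il2rg* showed no common direction, with 7 types higher and 7 lower. In Tn it was at 189, 280 and 215 CPM in hearts 1 to 3 and at 163, 77.7 and 154 CPM in hearts 4 to 6, without overlap (0.79 ± 0.37, limma unadjusted p = 0.0383, adjusted p = 0.952), on 70 and 56 UMIs. Without heart 5 the value was 0.48. In NK cells it was at 265, 237 and 293 CPM against 307, 319 and 297 CPM, without overlap in the opposite direction but with a small difference (-0.21 ± 0.16, limma unadjusted p = 0.196, adjusted p = 0.899). In fibroblasts it was at 7.21, 0 and 30.2 CPM against 61.3, 207 and 27.8 CPM (-2.13 ± 0.77, limma unadjusted p = 0.00875, adjusted p = 0.998), where 207 CPM is heart 5 with 4 cells, and without hearts of fewer than 10 fibroblasts it was -0.98. Over all cells, hearts 1 to 3 had 191, 199 and 202 CPM and hearts 4 to 6 had 208, 213 and 212 CPM (-0.09 ± 0.09, limma adjusted p = 0.946), and the sign turned to 0.07 with every type weighted equally. Over the T cell types pooled (Tn, Tcm, Tem/eff, Trm-like and Treg) the groups did not overlap in the other direction (247, 222 and 222 CPM against 208, 220 and 217 CPM, 0.10 ± 0.13, limma adjusted p = 0.966), as for 10.1% of genes in that comparison. In Tregs the difference was 0.12 ± 0.29 (limma adjusted p = 0.982), with 331, 219 and 215 CPM against 192, 235 and 266 CPM.

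*Il2rb* did not separate the groups in the cells where it was highest. In NK cells the hearts labelled IL-33+ had 2675 ± 103 CPM and those labelled IL-33- 2777 ± 97.9 CPM (n = 3 each, -0.05 ± 0.08, limma adjusted p = 0.952). In NKT cells the values were 2606 ± 320 and 2541 ± 135 CPM (0.03 ± 0.10, limma adjusted p = 0.972), and the sign turned under limma-voom and under quantile normalization (-0.05 in each).

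**Figure D4:**
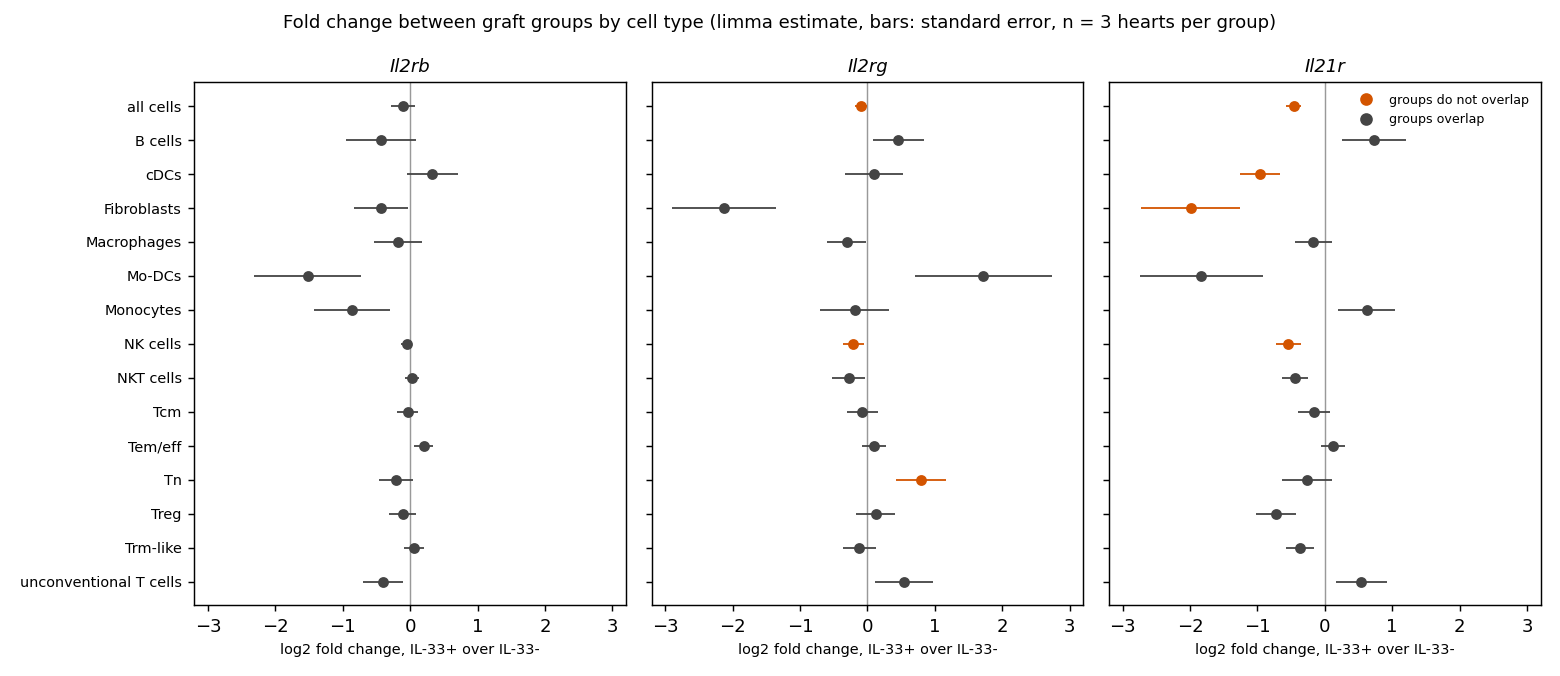
Log2 fold change of IL-33+ over IL-33- hearts (horizontal axis, points, with bars of 1 standard error from limma) for *Il2rb*, *Il2rg* and *Il21r* in 14 types and over all cells. Orange points mark groups of 3 hearts that do not overlap. In NK cells *Il2rb* is at -0.05 and *Il21r* at -0.54.

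The cytokines were too rare for a fold change of firm size. *Il21* in Tem/eff gave 7, 2 and 4 UMIs in hearts 1 to 3 and 1, 0 and 10 UMIs in hearts 4 to 6 (18.1 ± 9.54 against 11.1 ± 18.1 CPM, 0.68 ± 0.45, limma adjusted p = 0.998). Its fold change ran from 0.31 without heart 5 to 1.34 without heart 6, and was 0.17 without mixed-marker cells and 2.03 with 1 CPM added in place of 10. Over the T cell types pooled it was 8.63 ± 6.64 against 6.42 ± 5.33 CPM (0.17 ± 0.27, limma adjusted p = 0.966), and the sign turned without heart 2 (-0.09), without heart 5 (-0.05) and without mixed-marker cells (-0.09). *Il2* in Tem/eff gave 3, 1 and 1 UMIs against 4, 0 and 3 UMIs (0.07 ± 0.38, limma adjusted p = 0.999). *Il15* in macrophages was at 9.19, 0 and 18.6 CPM against 21.5, 4.81 and 5.72 CPM (-0.14 ± 0.48, limma adjusted p = 0.994), and *Il15ra* in macrophages at 13.3, 38.2 and 18.8 CPM against 28.7, 28.1 and 36.8 CPM (-0.37 ± 0.44, limma adjusted p = 0.987). *Il15* over all cells had 11.4, 5.45 and 12.5 CPM against 9.32, 3.58 and 4.09 CPM, and these groups overlapped (0.33 ± 0.20, limma adjusted p = 0.941). *Il7* in fibroblasts was not tested, at 7 UMIs in heart 3, 1 in heart 4 and none in the other hearts. In the 52 pairs that neither passed the unadjusted threshold nor had separate groups, 24 fold changes were above 0 and 28 below, from -1.52 to 1.72. At these depths a difference in the cytokines was not detectable, which does not show that they were alike.

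The other genes of the pathway were taken from a list of 22 names, of which 21 are in the matrix. In 244 tested pairs of a gene and a type, limma called 0 after adjustment (lowest adjusted p = 0.209), and 22 had an unadjusted p of 0.05 or less (9.02%, against 4.71% of all pairs). Of these, 16 had a higher level in hearts labelled IL-33+, where 2.42% of all pairs were higher at this threshold, and 6 were lower. The groups did not overlap in 33 pairs (13.5%, against 9.82% of all pairs). *Bcl2*, which encodes a survival protein induced by IL-7 and IL-15, accounted for 5 of the 22. In NK cells it was at 430, 371 and 451 CPM against 269, 183 and 273 CPM (0.78 ± 0.17, limma unadjusted p = 0.000109, adjusted p = 0.209). In Trm-like cells it was at 203, 145 and 201 CPM against 38.1, 81.6 and 62.0 CPM (1.49 ± 0.33, limma unadjusted p = 0.000133, adjusted p = 0.348). The fold changes were 0.74 ± 0.25 in Tcm, 1.91 ± 0.59 in cDCs and -1.73 ± 0.80 in monocytes, and the groups did not overlap in NK cells, Trm-like cells, Tcm, cDCs and unconventional T cells, in all of which the level was higher in hearts labelled IL-33+. Its fold change was above 0 in 12 of 14 types.

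The other signalling genes were mixed in direction. *Pim1*, a kinase gene, had fold changes of 0.58 in macrophages, 0.43 in Trm-like cells, 0.37 in Tregs and 0.30 in NK cells at an unadjusted p of 0.05 or less, and was above 0 in 12 of 14 types. *Cish*, an inhibitor of the pathway, was at 246, 267 and 236 CPM against 140, 164 and 132 CPM in Trm-like cells (0.75 ± 0.25, limma unadjusted p = 0.00672, adjusted p = 0.923), and its fold change in unconventional T cells was 1.21. *Socs3* in macrophages was at 0.64. *Socs2* in cDCs was at -1.55 and *Socs1* in Tcm at -0.74. *Stat5a*, which encodes a STAT5 protein, was at 1.12 in cDCs and 0.45 in Tem/eff, whereas *Bcl2l1* in Trm-like cells was at -0.75, *Mcl1* in NKT cells at -0.33 and *Jak1* in B cells at -0.58. *Il4ra* in macrophages was at 204 ± 18.0 against 132 ± 26.8 CPM (n = 3 each, 0.61 ± 0.26, limma adjusted p = 0.987).

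Among the receptor partners, *Il2ra* was tested in 11 types and was above 0 in 7. In Tregs it was at 459, 299.7 and 236 CPM against 141, 326 and 423 CPM (0.24 ± 0.32, limma adjusted p = 0.976), and in Tem/eff the fold change was -0.08 ± 0.18 (limma adjusted p = 0.999). Its 1 pair past the unadjusted threshold was NKT cells (0.95 ± 0.46, limma adjusted p = 0.924), and the groups overlapped, as heart 3 had 63.3 CPM and the other 5 hearts 5.39 to 16.7 CPM. *Il7r* in Tregs was at 123, 73.0 and 172 CPM against 63.9, 35.2 and 95.2 CPM (0.84 ± 0.43, limma adjusted p = 0.923), and in unconventional T cells at 106, 140 and 236 CPM against 53.1, 68.8 and 58.1 CPM (1.22 ± 0.52, limma adjusted p = 0.984), the type with most mixed-marker cells. *Jak3*, the kinase bound to the common gamma chain, had no pair past the unadjusted threshold in 14 types, and over all cells it was at 29.8 ± 3.22 against 29.2 ± 3.11 CPM (0.02 ± 0.14, limma adjusted p = 0.988).

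**Figure D5:**
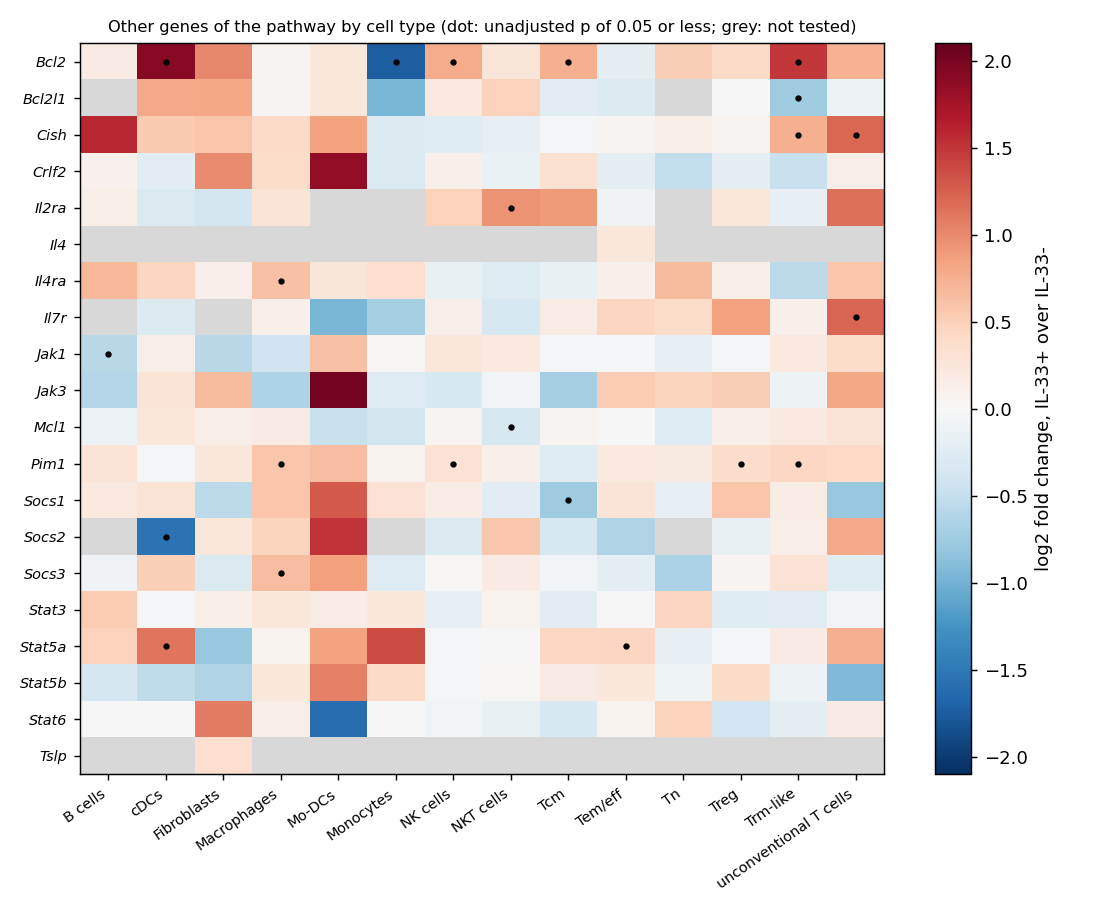
Log2 fold change of IL-33+ over IL-33- hearts (color scale) for the other genes of the pathway (rows) in 14 types (columns). Dots mark an unadjusted limma p of 0.05 or less, grey marks pairs not tested, and none passed adjustment. *Bcl2* has the most dots, with 4 of its 5 above 0.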

How the data were processed

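Immune cells of 6 grafts were measured in 1 hashed library. Reads were processed with Cell Ranger on mm10 and Partek 10.0.23.0425 (submitters' notes), cells were filtered by the authors on counts, genes and mitochondrial share, and the deposited values are log2(CPM + 1). The log was undone, and 99.9% of low values lay within 0.05 of a whole UMI. The genes and lists were chosen with earlier results of these data known. Hearts were mapped by hashtag. Mean CPM per heart and type plus 10 was compared on the log2 scale with limma 3.58.1 (R 4.3.3, trend), for genes with at least 10 UMIs and a UMI in at least 3 hearts, with Benjamini-Hochberg adjustment per type at 0.05. Named fold changes were 9 chosen pairs and all pairs with an unadjusted p of 0.05 or less or separate groups. Pathway genes were named at that p, with *Il2ra*, *Il7r* and *Jak3*. Single values had exact permutation tests. The fits were run on simulated summed counts for NK cells, Tregs and all cells only, which does not check the types with few cells. Hearts were taken as separate animals, and with 10 CPM added a fold change understates that of low genes. Alternatives changed the pseudocount, filter, scaling, method, cells and hearts used. Python 3.11.15 did the rest.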

Additional observations from a re-analysis of the deposited data

Results flagged for a closer look

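*Il2rg* was marked because its groups did not overlap in opposite directions in different types. This was so in 2 of 14 types (14.3%, against 9.82% of all pairs tested), which is too few to set apart from that background. In NK cells all hearts labelled IL-33+ lay below those labelled IL-33- (-0.21 on the log2 scale), and in Tn all lay above (0.79). The difference between these types was not tested. No check of single hearts against their group was made, since groups of 3 are too small for it.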

How the results depend on the processing

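Of 414 alternative fold changes for 29 results, 384 kept their direction, 30 turned and 0 passed an adjusted p of 0.05 (lowest 0.221, *Il21r* in NK cells under limma-voom). No member pair was called under any alternative. The number of called genes over 14 types was 10, and it was 3 with 1 CPM added, 37 with 50 CPM added, 67 without the filter, 28 under limma-voom, 1 after quantile normalization and 4 to 108 with a heart left out. Voom gave -0.10 for *Il2* in Tem/eff, -0.05 for *Il2rb* in NKT cells (quantile normalization -0.05), and over all cells -0.13 for *Il15ra* and -0.40 for *Il21*. Equal weighting of types gave 0.07 for *Il2rg*, -0.08 for *Il15ra* and -0.01 for *Il7*. Without mixed-marker cells *Il21* was -0.08 over all cells and -0.09 over pooled T cells. Without neutrophil-marker cells *Il15* in Mo-DCs was -0.12 (1.06 with all), where heart 2 fell to 0 CPM with the loss of 1 cell. With a heart left out, all-cell values ran from -0.27 to 0.07 (*Il2rb*), -0.01 to 0.08 (*Il2*), -0.08 to 0.17 (*Il15ra*) and -0.11 to 0.23 (*Il21*), pooled T cell values from -0.04 to 0.18 (*Il2*) and -0.09 to 0.45 (*Il21*), and type values from -0.07 to 0.09 (*Il2rb*, NKT cells), -0.08 to 0.23 (*Il2rg*, Tregs), -0.21 to 0.26 (*Il2*, Tem/eff) and -0.49 to 0.27 (*Il15*, macrophages). The cause of these turns was not tested. Voom moved the median of all genes in B cells by -0.35 and quantile normalization by -0.29, with shifts up to 0.05 the other way elsewhere. Of 80 alternative ratios of the highest to the next type, 16 were at or under 1, none of them for *Il2rb*, *Il15* or *Il21r*. No paired analysis was possible because the groups share no replicate numbers. Unconventional T cells were not run for hearts with at least 10 cells. *Il2*, *Il7*, *Il21* and *Il15* rest on 15 to 172 UMIs each.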
